A study of Homo sapiens with 2 samples.

Results

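The 9 enzymes described here, HMGCS1, MVK, MVD, FDPS, FDFT1, SQLE, LSS, CYP51A1 and DHCR7, each carry out a step in the synthesis of cholesterol. They were taken by gene name from the authors' table of input levels (9 of 25105 genes) and, with all their peaks, from the authors' list of m6A peaks (40 of 49746 peaks), and are given in pathway order. The study mapped N6-methyladenosine (m6A), a methyl group on adenosines within RNA, in wild-type, untreated Huh-7, an established human hepatocellular carcinoma line. RNA without ribosomal RNA was fragmented, and 1 library was built from the fragments bound by an antibody against m6A (the IP) and 1 from fragments that were not enriched (the input). With 1 library of each kind no value below has a replicate check, and no test between genes or groups was possible. The levels are FPKM (fragments per kilobase of transcript scaled to the size of the library) without counts, so the depth behind them is unknown.

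Liver cells make cholesterol from acetyl-CoA. The early enzymes build mevalonate and turn it into isoprenoid units, FDPS joins these to farnesyl diphosphate, FDFT1 and SQLE make squalene and its epoxide, LSS closes the ring to lanosterol, and CYP51A1 and DHCR7 act on the sterols that follow. Transcription of these genes is driven by SREBP2, a factor that cells activate when sterols are scarce, often together with NF-Y, which binds CCAAT boxes. In mRNA, m6A is most often found around stop codons and in 3' UTRs, mainly where an adenosine stands in a GGAC-like context, and proteins that read it can change how an mRNA is translated or decays.

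The RefSeq promoter table (GRCh38.p14) held 9 windows of 300 bases, 250 before and 50 after an annotated start, for 7 of the 9 genes, and none for FDFT1 and SQLE. The letters CCAAT, searched on both strands, were in windows of 6 of these 7 genes (HMGCS1, MVK, MVD, FDPS, LSS and DHCR7), against 44.1% of 8659 coding genes at 1 FPKM or more and 34.6% of all 35116 windows. The MVK window held 5 copies, those of MVD and FDPS 3 each, and that of LSS 1. The upstream window of HMGCS1 and the downstream window of DHCR7 held 2 each. The other window of HMGCS1, the other of DHCR7 and that of CYP51A1 held none, so 6 of the 9 windows had a copy. The letters GGGCGG, a GC box, were in windows of all 7 genes, against 77.4% of the same coding genes, and CACGTG, an E-box, only in that of LSS, against 12.8%. These letters were chosen after the windows were seen, and a match is no evidence of binding. The 250 bases before the start are shown for the upstream window of HMGCS1 and for FDPS, since a listed peak touches the transcribed end of both. They are also shown for CYP51A1, the only gene of the 7 without CCAAT in any window. They run 5' to 3' on the strand of the gene, with capitals on CCAAT or its complement. They are chr5:43313413-43313662, minus strand, for HMGCS1, chr1:155308616-155308865, plus strand, for FDPS, and chr7:92134478-92134727, minus strand, for CYP51A1.
HMGCS1: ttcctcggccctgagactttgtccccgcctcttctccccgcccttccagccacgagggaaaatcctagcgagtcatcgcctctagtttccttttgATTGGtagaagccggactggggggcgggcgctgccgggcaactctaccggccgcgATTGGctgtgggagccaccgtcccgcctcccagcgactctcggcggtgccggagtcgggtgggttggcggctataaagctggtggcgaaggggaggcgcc
FDPS: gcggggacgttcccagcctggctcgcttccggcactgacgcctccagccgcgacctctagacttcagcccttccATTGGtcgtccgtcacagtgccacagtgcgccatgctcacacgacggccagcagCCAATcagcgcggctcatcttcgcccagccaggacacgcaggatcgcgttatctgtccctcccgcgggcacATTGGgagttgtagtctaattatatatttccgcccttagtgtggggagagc
CYP51A1: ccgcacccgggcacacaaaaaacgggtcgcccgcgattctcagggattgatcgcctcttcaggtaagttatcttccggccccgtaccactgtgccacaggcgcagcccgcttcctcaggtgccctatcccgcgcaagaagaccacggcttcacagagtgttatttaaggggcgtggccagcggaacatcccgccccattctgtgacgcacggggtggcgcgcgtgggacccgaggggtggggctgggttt

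Of the 9 windows, 4 shared bases with a listed peak of their gene. The first peak of MVK covered 289 bases of the MVK window, whose RefSeq start lay inside the gene as the authors' table spans it. A peak in the 5' UTR of HMGCS1 covered 23 bases of the upstream window and 254 of a second window at another RefSeq start of HMGCS1, and the first peak of FDPS covered 43 bases of its window. Within these stretches GGAC on the strand of the gene occurred at 5 places, 3 in HMGCS1 and 2 in MVK, and not in FDPS. GGAC on that strand was in 66.3% of all windows and GGACT in 25.3%, so such matches are common and mark no methylated base. Stretches of 30 bases around the GGACT of each gene and a GGACC of HMGCS1 are shown with the match in capitals, from chr12:109573611-109573640, plus strand, chr5:43313212-43313241, minus strand, and chr5:43313152-43313181, minus strand. The last of these lies just after the second HMGCS1 start. The GGACT of HMGCS1 lies before that start, at position -47, and that of MVK before the RefSeq start of its window, at -170.
MVK with GGACT: gggacactcccagGGACTtgtttcccattg
HMGCS1 with GGACT: aggacgtaggcgtGGACTttgcccgggagg
HMGCS1 with GGACC: gttccctcgtgagGGACCtgaggccgaccg

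All 9 enzymes stood above the median input level of coding genes, 5.59 FPKM over 10539 coding genes at 1 FPKM or more, and 6 of the 9 were in the top 10% of these genes. HMGCS1, which makes HMG-CoA from acetyl-CoA and acetoacetyl-CoA, was highest at 98.4 FPKM (percentile 98.6). DHCR7, which reduces 7-dehydrocholesterol to cholesterol, followed at 91.1 FPKM and CYP51A1, the lanosterol demethylase, at 63.4 FPKM. FDPS stood at 42.9 FPKM and MVD, the decarboxylase that forms isopentenyl diphosphate, at 38.6 FPKM. LSS stood at 28.6 FPKM, FDFT1, the squalene synthase, at 20.2 FPKM, and SQLE, the squalene epoxidase and a rate-limiting enzyme of the later steps, at 16.8 FPKM. MVK, the mevalonate kinase, was lowest at 11.0 FPKM (percentile 74.5), so the levels spanned 8.94-fold. The first enzyme of the 9 and the last 2 were thus the 3 highest in this library. Whether neighbours in this order differ beyond the spread of the assay cannot be told from 1 library.

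**Figure D1:**
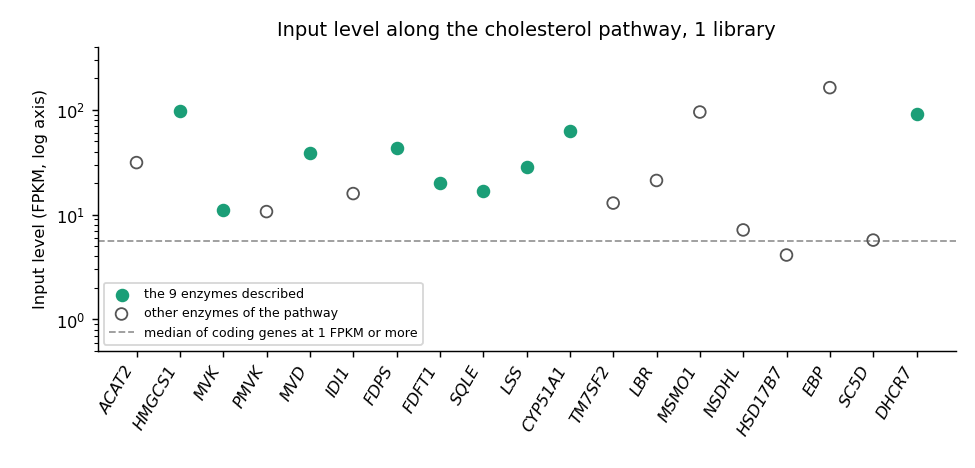
Input level in FPKM on a log axis for 19 enzymes in pathway order, 1 point a gene from 1 input library, filled for the 9 enzymes described and open for 10 others of the pathway. The filled points run from 11.0 FPKM for MVK to 98.4 FPKM for HMGCS1, all above the dashed median of coding genes.

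A list of 10 other enzymes of the pathway covered a wider range, from 4.12 to 163 FPKM, with a median of 14.4 FPKM against 38.6 FPKM for the 9. EBP (163 FPKM), which acts on the late sterols, was highest, followed by the sterol methyl oxidase MSMO1 (95.4 FPKM) and by ACAT2 (31.4 FPKM), which forms acetoacetyl-CoA. LBR (21.2 FPKM), IDI1 (15.9 FPKM), TM7SF2 (12.9 FPKM) and PMVK (10.7 FPKM) lay in the middle. NSDHL (7.15 FPKM), SC5D (5.72 FPKM) and HSD17B7 (4.12 FPKM) were lowest, and of these only HSD17B7 was under the coding median. Names of 9 processed pseudogenes of FDPS and CYP51A1 were also listed. The 6 of FDPS summed to 2.71 FPKM and the 3 of CYP51A1 to 2.09 FPKM, small beside their parents, and reads that fit both a parent and a pseudogene cannot be told apart. Of these pseudogenes only FDPSP7 had a peak, with a log2 fold of 4.46 (adjusted p 0.00337) at 0.471 FPKM. The pseudogenes were looked up after the values of their parents were seen.

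The input RNA was that of liver-type cells. All 9 hepatocyte markers lay between 55.1 and 2380 FPKM, with a sum of 5370 FPKM. Of 4 endothelial markers only PECAM1 was listed, at 1.33 FPKM, and of 4 leukocyte markers only CD68, at 0.950 FPKM. The 5 fibroblast and stellate markers lay between 0.159 and 1.46 FPKM. The protocol text mentions fat tissue, but of 4 adipocyte markers ADIPOQ and LEP were not listed and the others reached at most 0.718 FPKM.

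All 9 enzymes had 2 or more listed peaks. Any peak was listed for 96.3% of coding genes at 1 FPKM or more and for 95.9% of the 2538 coding genes within the level range of the 9 (11.0 to 98.4 FPKM), and 2 or more for 81.8% and 81.7%, so carrying peaks was common at these levels. The folds of IP over input and their p-values were computed by the authors, whose scaling of the IP library against the input is not given in these sources. LSS had 7 peaks, HMGCS1 and SQLE 6 each, MVK 5, FDFT1 and CYP51A1 4 each, MVD and FDPS 3 each and DHCR7 2, a median of 4 against 3 for coding genes of their level range. The log2 fold of the strongest peak ran from 0.46 in CYP51A1 to 2.70 in HMGCS1. Its median over the 9 was 1.14, against 1.34 for coding genes in the level range and 1.77 for all coding genes at 1 FPKM or more. The genes in the level range had a median level of 18.9 FPKM against 38.6 FPKM for the 9, so they were not matched in level. A peak of 4-fold or more was listed for HMGCS1 and MVK, 2 of 9, against 25.7% in the level range and 40.7% of all coding genes. A peak with an adjusted p under 0.001 was listed for all 9, against 89.1% and 82.2%, and 5 of 9 (HMGCS1, MVK, FDPS, SQLE and LSS) had a peak of 2-fold or more that also passed that limit, against 56.4% and 67.6%. These shares lay near their backgrounds and are no result about the 9. The strongest peaks of MVD (log2 fold 0.999), DHCR7 (0.991) and FDFT1 (0.987) fell just under 2-fold.

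**Figure D2:**
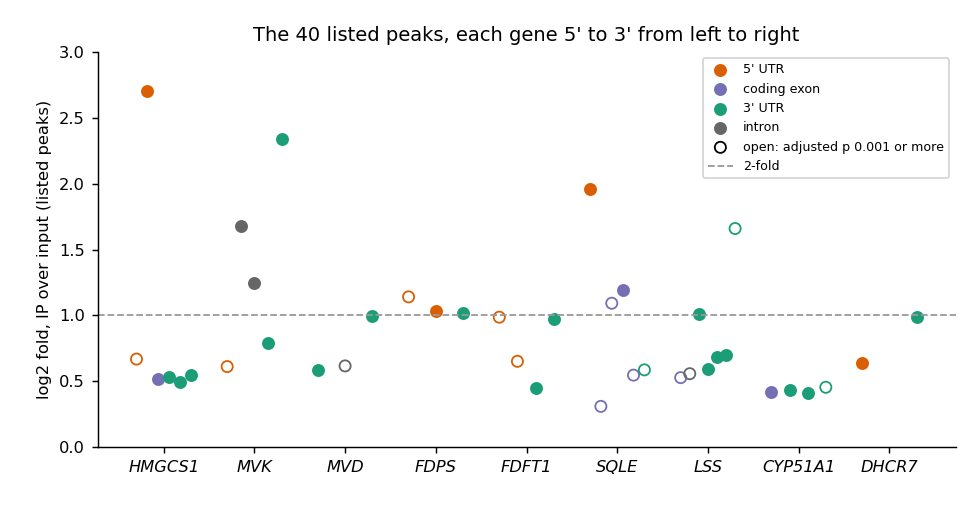
The log2 fold of IP over input for all 40 listed peaks (vertical axis), by gene in pathway order and within a gene from 5' to 3', coloured by listed region and open where the adjusted p was 0.001 or more. The 5' UTR peak of HMGCS1 at 2.70 is highest, and the 4 peaks of CYP51A1 lie between 0.41 and 0.46.

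HMGCS1, at the start of the pathway, had the strongest peak of the 9, and its other peaks were weak. The gene (ENSG00000112972, minus strand, chr5:43287470-43313512) carried a peak at chr5:43298084-43298967, listed in the 5' UTR, with a log2 fold of 2.70 (6.52-fold, adjusted p listed at 0). It began 14545 nt from the start of the gene, and its midpoint lay 57.5% along the genomic span, introns included. The first peak, at chr5:43313130-43313385 and also listed in the 5' UTR, began 127 nt from the gene start and had a log2 fold of 0.67 (adjusted p 0.0211). A coding exon peak at chr5:43294593-43294742 had 0.51 (adjusted p 1.18e-07). The 3 peaks in the 3' UTR had log2 folds of 0.53, 0.50 and 0.55, with adjusted p-values between 3.66e-64 and 0.00052. HMGCS1 thus had 1 peak far above the rest, 4.11-fold higher than the next. Among 285 coding genes with a peak and a level within 2-fold of that of HMGCS1, the strongest peak had a median of 1.00, and the HMGCS1 value was at percentile 93.2. All 3 of its 3' UTR peaks overlapped peaks of AC114947, a non-coding gene on the other strand listed at 0.000965 FPKM. The AC114947 peaks had log2 folds of 0.60 (adjusted p 6.52e-26) and 0.69 (adjusted p 0.00353). Whether reads of HMGCS1 entered these peaks on the other strand was not tested.

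MVK, the lowest of the 9 by level, had the second strongest peak. The gene (ENSG00000110921, plus strand, chr12:109573255-109598125) carried it at its very end, in the 3' UTR at chr12:109597388-109598125, with a log2 fold of 2.34 (5.06-fold, adjusted p 1.98e-35). A pair of peaks was listed in introns, at chr12:109588220-109588744 with 1.68 (adjusted p 2.45e-10) and at chr12:109589670-109590119 with 1.25 (adjusted p 0.00033). A peak in the 5' UTR, which runs over the window described above, had 0.61 (adjusted p 0.00138), and another 3' UTR peak, listed on a transcript of the nonsense-mediated decay class, had 0.79. MVK was the only one of the 9 with intron peaks of 2-fold or more. MMAB, transcribed from the other strand, overlapped the listed span of MVK and stood at 9.39 FPKM, but no MMAB peak overlapped a peak of MVK. Among 4082 coding genes with a peak within 2-fold of its level (median 1.59) the strongest MVK peak was at percentile 73.3.

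MVD and FDPS had peaks of about 2-fold. MVD (ENSG00000167508, minus strand, chr16:88651935-88663161) had its strongest at chr16:88652060-88653403, 125 nt from the end of the gene in the 3' UTR. Its log2 fold was 0.999, just under 2-fold (adjusted p 7.98e-56). An intron peak had 0.62 (adjusted p 0.00517) and a mid-gene peak 0.59 (adjusted p 2.23e-05). The latter is listed as 3' UTR, but of a transcript of the nonsense-mediated decay class. FDPS (ENSG00000160752, plus strand, chr1:155308748-155320666) had 3 peaks of nearly equal fold. The peak at chr1:155308873-155309022 in the 5' UTR had a log2 fold of 1.14 with an adjusted p of 0.0465, and a 5' UTR peak at chr1:155309923-155312928 had 1.03 (adjusted p 3.66e-39). The peak in the 3' UTR, at chr1:155319819-155320666, had 1.02 (adjusted p 1.13e-33), and its whole length of 848 nt was shared with a peak of 1.28 on the antisense gene RUSC1-AS1. RUSC1-AS1 stood at 0.971 FPKM against 42.9 FPKM for FDPS. The library marked strand, but whether reads of FDPS entered the peak on the other strand was not tested.

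Among the squalene enzymes, FDFT1 had no peak of 2-fold, SQLE had its strongest at the 5' end and LSS had most of its peaks at the 3' end. FDFT1 (ENSG00000079459, plus strand, chr8:11795573-11839304) had a 5' UTR peak with a log2 fold of 0.99 (adjusted p 0.0105) and a 3' UTR peak with 0.98 (adjusted p 1.58e-32). The former rests on a far larger p than the latter. The other 2 peaks of FDFT1 had 0.65 and 0.45. Both of its 3' UTR peaks were listed on transcripts of the nonsense-mediated decay class. SQLE (ENSG00000104549, plus strand, chr8:124998497-125022283) had 1.96 (3.89-fold, adjusted p 4.97e-121) in the 5' UTR, at chr8:124999072-124999951, 575 nt from the gene start. It also had 4 peaks in coding exons, more than any other of the 9, with log2 folds from 0.31 to 1.19, and a 3' UTR peak of 0.59. Of these, the coding exon peak of 1.19 had an adjusted p of 0.000319. LSS (ENSG00000160285, minus strand, chr21:46188141-46228824) had 5 of its 7 peaks in the 3' UTR. The strongest by fold, at chr21:46188341-46188490 with 1.66, had an adjusted p of 0.00334, while the best supported, at chr21:46190516-46191090, had 1.01 (adjusted p 2.25e-29).

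The sterol enzymes CYP51A1 and DHCR7, both among the 3 highest by level, had no peak that reached 2-fold. CYP51A1 (ENSG00000001630, minus strand, chr7:92112153-92134803) had 4 peaks with log2 folds of 0.42, 0.44, 0.41 and 0.46 from 5' to 3', the first in coding exons and the others in the 3' UTR. They differed by only 0.04 among themselves. Among 530 coding genes with a peak within 2-fold of its level (median 1.07) the strongest CYP51A1 peak was at percentile 0.849, the lowest such rank of the 9. DHCR7 (ENSG00000172893, minus strand, chr11:71428193-71452868) had a 3' UTR peak at chr11:71434426-71435525 with 0.99 (1.99-fold, adjusted p 4.85e-123) and a 5' UTR peak with 0.64 (adjusted p 3.66e-13). The 3' UTR peak lay 6233 nt before the end of the gene as listed, and its region is that of the listed transcript ENST00000525137. DHCR7 ranked at percentile 49.5 among 322 genes of like level, and MVD (40.3), FDPS (50.3), FDFT1 (28.0), LSS (65.4) and SQLE (67.2) also lay in the middle. Against the median of genes of like level, 4 of the 9 (HMGCS1, MVK, SQLE and LSS) were above, FDPS and DHCR7 matched it to 2 decimals of the log2 fold, and MVD, FDFT1 and CYP51A1 were below. The places of LSS and FDPS rested on peaks with adjusted p-values of 0.00334 and 0.0465. Their strongest peaks with an adjusted p under 0.001 had 1.01 and 1.03. These lay under the medians of 1.29 and 1.14, which were not limited by p.

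**Figure D3:**
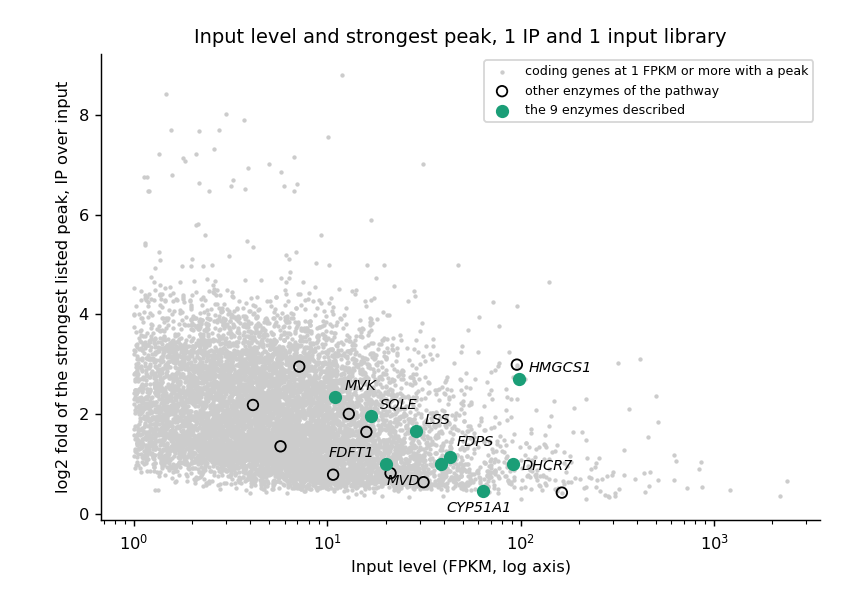
Input level in FPKM (log axis) against the log2 fold of the strongest listed peak, 1 point a gene, with 10145 coding genes in grey, the 9 enzymes filled and named, and 10 others of the pathway open. HMGCS1 (2.70 at 98.4 FPKM) lies above most genes of like level and CYP51A1 (0.46 at 63.4 FPKM) at the lower edge.

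By region, 20 of the 40 peaks (50.0%, exact Clopper-Pearson 95% interval 33.8 to 66.2%) were listed in 3' UTRs, 9 (22.5%, 10.8 to 38.5%) in 5' UTRs, 7 (17.5%, 7.34 to 32.8%) in coding exons and 4 (10.0%, 2.79 to 23.7%) in introns. Peaks of coding genes in the same level range were listed there in 52.4%, 15.5%, 23.6% and 8.40% of cases, all inside these intervals, which cover counting error only and take peaks of 1 gene as independent. All 9 genes had a 3' UTR peak, against 86.3% of coding genes in the level range. For FDFT1 such peaks were listed only on transcripts of the nonsense-mediated decay class. A 5' UTR peak was listed for 6 of 9 (HMGCS1, MVK, FDPS, FDFT1, SQLE and DHCR7), against 46.7%, a coding exon peak for 4 of 9, against 46.2%, and an intron peak for 3 of 9, against 21.0%. The strongest peak lay in the 5' UTR in 4 of 9 (HMGCS1, FDPS, FDFT1 and SQLE), against 20.5% of genes with a peak in the level range. Among peaks limited to adjusted p-values below 0.001, FDFT1 dropped out of this group, which left 3 of 9 against 16.8%. With 9 genes such differences are a few genes, and no test was made. Each region is that of the transcript listed for the peak. All HMGCS1 peaks were on ENST00000325110. The SQLE 5' UTR peak was listed on ENST00000521232, and all other SQLE peaks on ENST00000265896. The FDPS 5' UTR peak of 1.03 was on ENST00000611010, and the other FDPS peaks on ENST00000356657. The 5' UTR peaks of FDFT1 (ENST00000528812 and ENST00000530664) and MVK (ENST00000539696) were also on transcripts not listed for their other peaks. The median log2 fold was 0.99 for the 5' UTR peaks of the 9, 0.93 for intron peaks, 0.64 for 3' UTR peaks and 0.53 for coding exon peaks, and in the level range it was 0.96, 0.86, 0.71 and 0.61, the same order.

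**Figure D4:**
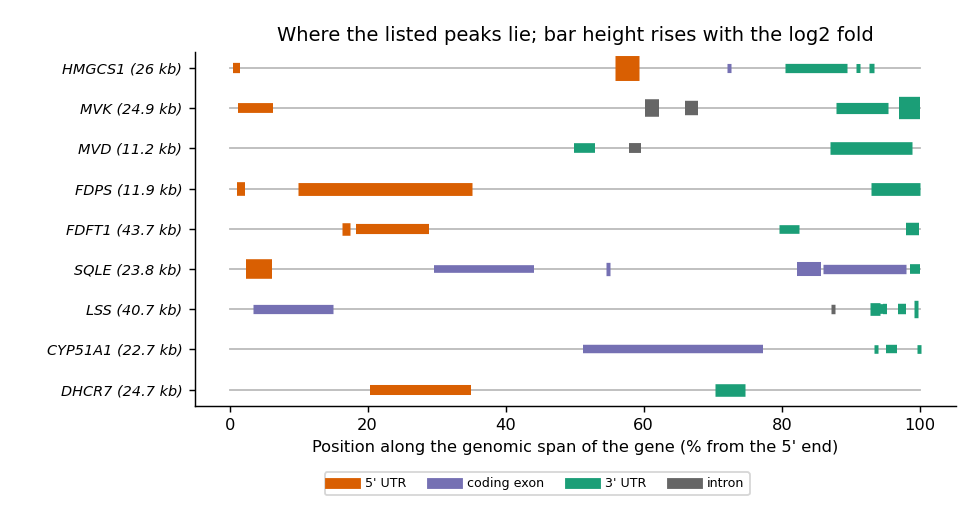
Position of the 40 listed peaks along the genomic span of each gene, in percent from its 5' end, with colour for the listed region and bar height rising with the log2 fold of IP over input. Bars run from the first to the last base of a peak, introns included, and 17 of the 40 midpoints fall in the last 10% of the span.

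Along the span of the genes, 17 of 40 peak midpoints (42.5%) lay in the last 10% and 5 (12.5%) in the first 10%, against 35.6% and 8.84% of peaks in the level range. The last peaks of MVK, FDPS and CYP51A1 reached the final base of the gene, and that of SQLE ended 5 nt before it. Peak lengths run from the first to the last base, with any introns counted. The coding exon peak of CYP51A1 spanned 5900 nt and that of LSS 4705 nt, so the base that carries the mark is not resolved. Of the 40 peaks 28 (70.0%) were under 2-fold, against 70.6% in the level range. An adjusted p under 0.001 was listed for 26 (65.0%, against 57.8%) and one under 1e-06 for 16 of the 40, against 35.7%. The 9 peaks that reached 2-fold and passed the limit of 0.001 (22.5%, against 22.1%) were split over regions, with 3 in 5' UTRs (HMGCS1, FDPS and SQLE), 3 in 3' UTRs (MVK, FDPS and LSS), 2 in introns (both MVK) and 1 in a coding exon (SQLE). A listed transcript of the nonsense-mediated decay class was given for 4 of the 40 peaks (10.0%), against 13.1% in the level range, and 4 overlapped a peak on the other strand, against 7.99%.

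Level and strongest peak were weakly related within the 9 (Spearman's rho -0.18 over 9 genes) and over the 19 enzymes of the pathway (rho -0.28), against -0.33 over 10145 coding genes. All these genes share the same pair of libraries, and the values are a description.

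These 10 other enzymes of the pathway also all had peaks, 33 in total. All 10 had a 3' UTR peak, as did 9281 of 10539 coding genes at 1 FPKM or more. In the level range of the 9 that share was 86.3%. The strongest peak of the 10 enzymes had a median log2 fold of 1.49, from 0.42 to 2.99. Of the 10, 4 had a peak that reached 2-fold and passed the limit of 0.001. Among coding genes at 1 FPKM or more this share was 67.6%, and any peak was listed for 96.3%. MSMO1 (2.99, adjusted p listed at 0) and NSDHL (2.95), which act together in the demethylation of sterols, were highest, both in the 3' UTR, and MSMO1 stood at nearly the level of HMGCS1. HSD17B7 (2.18, adjusted p 0.0091), TM7SF2 (2.00), IDI1 (1.64, adjusted p 0.0408), SC5D (1.35), LBR (0.81), PMVK (0.78) and ACAT2 (0.63, adjusted p 0.00921) followed, and EBP (0.42) was lowest. In none of the 10 was the strongest peak in the 5' UTR of its listed transcript, against 4 of the 9. The share was 20.5% of coding genes with a peak in the level range of the 9. With adjusted p-values below 0.001, 3 of the 9 were left. The lead of the 5' UTR peak over the 3' UTR peak was small in FDFT1 (0.99 against 0.98) and in FDPS (1.14 against 1.02). The FDPS peak of 1.14 had an adjusted p of 0.0465. With adjusted p-values below 0.001 the lead in FDPS was 1.03 against 1.02. No test of the difference between the 9 and the 10 was made.

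For the counts of the lists that follow, the shares of coding genes at 1 FPKM or more were 96.3% with any peak and 67.6% past both limits. All of 11 genes of SREBP control and sterol sensing had peaks, and 5 of 11 passed both limits. Their median strongest log2 fold was 1.25 at a median level of 11.6 FPKM. The SREBP protease MBTPS1 (2.86) and SCAP (1.90), which escorts SREBP out of the endoplasmic reticulum, were highest, and INSIG1 (0.71), which helps to hold it there, and MARCHF6 (0.81), the ligase that marks SQLE for breakdown, were lowest. The 12 genes of fatty acid synthesis had a median of 1.30 at 23.4 FPKM, and 6 of 12 passed both. ACACA (2.88) and ACACB (2.78), the acetyl-CoA carboxylases, were highest, and SCD (0.44) and ACLY (0.62) lowest. Of 9 enzymes of the isoprenoid branches, which draw on the same precursors, 7 had a peak, with a median of 1.78 over these 7 at a median level of 2.86 FPKM over the 9. DHDDS (3.23) and GGPS1 (2.80) were highest and FNTB (1.20) and PGGT1B (1.25) lowest, and COQ2 (2.76 FPKM) and PDSS1 (2.72 FPKM) had none.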

How the data were processed

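Per the submitters' processing notes, fastp, FastQC, HISAT2, HOMER, StringTie and edgeR were used, without roles or versions. Levels are FPKM of the input library, per the file headers. For each peak the authors deposited the log2 fold of IP against input, its p-value with and without adjustment, and a length in bases. The list was limited at an unadjusted p of 0.05, so adjusted values can exceed that. Of peak starts, 3007 lay 1 base below a gene start and 0 at it, while 1791 ends equalled a gene end, so starts were read as counting from 0 and are printed 1 higher. No build is named in the sources used here. Of 19112 genes found by symbol in GRCh38.p14, 99.9% overlapped their span there and 12829 shared an exact start or end, so peaks were compared with RefSeq windows of that build.

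Peaks were joined by gene name for the 9 enzymes, which gave the same peaks as gene ID for all 9, and by gene ID otherwise. Biotypes came from RefSeq by symbol, synonym or gene ID, for 80.6% of genes. Genes of like level were coding genes at 1 FPKM or more within 2-fold. Overlap, position and rank were checked on simulated data with Python 3.11.15, pandas 2.3.3, numpy 2.4.6, scipy 1.17.1 and matplotlib 3.10.9. The genes, the lists and the comparisons were chosen with earlier results of these data known. Named were the 9 enzymes, 10 others of the pathway, the 2 highest and 2 lowest of each further list by strongest peak, and genes whose peaks overlap those of the 9. Also named were cell type markers, MMAB, whose span overlaps that of MVK, the pseudogene FDPSP7, and COQ2 and PDSS1, which had no peak. Alternatives were limits on p and fold, the median peak, peaks free of the other strand, level minimums and rescaled FPKM. Some genes first listed are not reported here and were left out of the lists, their counts and their medians. Sequence under the peaks beyond the promoter windows was not used here.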

Additional observations from a re-analysis of the deposited data

How the results depend on the processing

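All 9 enzymes had a peak with an adjusted p under 0.001, 8 had one under 1e-06 (a limit chosen after seeing the data, which CYP51A1 missed), and 5 had one that passed the joint limit of 2-fold and an adjusted p under 0.001. The 40 peaks became 26 with an adjusted p under 0.001, 16 under 1e-06 and 9 under the joint limit. The median strongest log2 fold of 1.14 became 1.01 with an adjusted p under 0.001, 1.02 over the 8 genes left under 1e-06 and 0.81 with the median peak of each gene. The share of peaks in the 3' UTR went from 50.0% to 33.3% under the joint limit, which left 9 peaks. Without peaks that overlap the other strand all 9 enzymes, 36 peaks and the same median were left. The median level of 38.6 FPKM was 84.8 when FPKM was rescaled to a common total over all genes, and its percentile of 94.9 was 97.5 among all genes listed and 90.6 among coding genes of at least 5 FPKM. The share of genes with a peak, 96.3% of coding genes, was 96.9% at 5 FPKM or more and 58.2% of all genes listed. Weighting peaks by exonic length was not run, since the listed length includes introns. No paired analysis was possible because each group holds 1 library. FPKM without counts sets no depth, so no limit on an unlisted peak can be given.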
